A study of Mus musculus with 4 samples.

Results

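C7 Gdf10 fibroblasts were cells with at least 1 UMI (unique molecular identifier, 1 captured transcript) of Pdgfra, at least 3 UMIs of C7 and Gdf10 together, and 0 UMIs of Ptprc and Pi16. Cells with more than 10% mitochondrial UMIs were left out. The rule found 829 of the 62665 called cells, with 324 in uninjured muscle, 183 at 1 day post injury (dpi), 252 at 3 dpi and 70 at 7 dpi. The values of C7, Gdf10, Pdgfra, Ptprc and Pi16 chose the cells, so the levels of these 5 genes are given as description and were not tested.

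Pdgfra marks the mesenchymal cells of muscle, also called fibro-adipogenic progenitors, which lie between the fibres and make matrix and fat. C7 encodes a component of the terminal complement complex, which inserts into membranes, and Gdf10 encodes a secreted protein of the bone morphogenetic protein (BMP) family. BMP signals start cartilage and bone formation and are held in check outside the cell by secreted antagonists, so cells that release these antagonists are of interest in a muscle where bone forms.

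The muscle came from Nse-Bmp4 mice on the C57BL/6 background, 6 to 8 weeks old, in which a rat neuron specific enolase promoter drives murine Bmp4 and muscle injury leads to heterotopic bone. All 4 groups carried this transgene, and no library of wild type mice was used here. Single cells were captured on the 10x platform from tibial muscle that was uninjured (Uninjured) or taken 1, 3 or 7 days after cardiotoxin injury. Each group was 1 library of 3 pooled muscles, so no test between time points was possible, and a time point and its library cannot be told apart. The libraries held 12031, 11722, 15160 and 23752 called cells with 112317902, 91146335, 116346301 and 129007669 UMIs (Uninjured, 1, 3 and 7 dpi, the order used throughout). The median C7 Gdf10 fibroblast held 10469, 10584, 8047 and 8801.5 UMIs. No barcode of a C7 Gdf10 fibroblast in 1 library named a C7 Gdf10 fibroblast in another, while pairs of whole libraries shared 30 to 95 barcodes.

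Pdgfra-positive, Ptprc-negative cells numbered 8139, 3408, 5199 and 5358. C7 Gdf10 fibroblasts made up 3.98% of them in the Uninjured library (exact 95% interval 3.57 to 4.43), 5.37% at 1 dpi (4.64 to 6.18), 4.85% at 3 dpi (4.28 to 5.47) and 1.31% at 7 dpi (1.02 to 1.65). These intervals and all others between libraries cover counting error only. The 7 dpi share lay below the intervals of the 3 earlier libraries. Cells were also thinned to 2000 UMIs, with shallower cells left out (103, 122, 408 and 577 of the Pdgfra-positive, Ptprc-negative cells). The shares were then 1.25, 1.42, 1.94 and 0.698%, so the 7 dpi value was again the lowest. Its upper limit of 1.15% then reached past the Uninjured and 1 dpi lower limits of 0.944 and 0.974%. In Ptprc-positive, Pdgfra-negative cells, which should make neither gene, 0.327, 0.0798, 0.154 and 0.195% reached 3 UMIs of C7 and Gdf10, at median depths of 4097, 4835, 3547.5 and 2468.5 UMIs.

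The Pi16 condition removed more cells than it left in the Uninjured and 1 dpi libraries and fewer at 3 and 7 dpi. Of the cells with Pdgfra and at least 3 UMIs of C7 and Gdf10, a UMI of Pi16 removed 766, 203, 180 and 49, and a UMI of Ptprc removed 26, 61, 44 and 4. The sum of C7 and Gdf10 had a median of 6, 5, 5 and 4 UMIs per cell, and 77, 50, 73 and 28 cells held exactly 3, the lowest sum allowed. In the Uninjured library the 77 cells at exactly 3 UMIs had Igfbp3 at 389 CPM and Sfrp4 at 529 CPM (CPM, UMIs of a gene scaled to a total of 1000000 UMIs over the cells), while the 164 cells just outside, at exactly 2 UMIs, had Igfbp3 at 207 CPM and Sfrp4 at 158 CPM. The threshold therefore cut through a range of levels.

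Fibroblast markers were present in every library. All 9 fibroblast markers were detected, with a sum of 56557, 33175, 39796 and 53925 CPM, led by Dcn in the first 3 libraries and by Col3a1 at 7 dpi. Immune markers other than Ptprc, which the rule set to 0, summed to 20.9, 186, 110 and 53.2 CPM, and at 1 dpi S100a9, a neutrophil gene, was the highest of them at 70.1 CPM. Endothelial markers summed to at most 12.4 CPM with Cldn5 at 0 in every library. Schwann cell markers summed to 102, 31.2, 40.9 and 87.3 CPM with S100b the highest and Sox10 at 0 throughout. The mural list was highest at 7 dpi with 366 CPM, of which Acta2 gave 266 CPM, and the muscle list was then at 198 CPM, of which 134 CPM was Myog. Of the 98 Myog UMIs at 7 dpi, 96 lay in 1 cell. Tenocyte markers summed to 621, 201, 260 and 498 CPM, led by Fmod in the Uninjured and 7 dpi libraries and by Thbs4 in the others, with Scx at 0 at 1 and 3 dpi. In the Uninjured library that sum was above those of the other Pdgfra classes described further on (171, 197 and 330 CPM), at 1 dpi it was above 1 of them (160, 209 and 285 CPM), and at 3 dpi (817, 827 and 926 CPM) and 7 dpi (1035, 1283 and 1124 CPM) it was below all 3. Chondrocyte markers summed to 1.59, 0.866, 1.21 and 4974 CPM, led at 7 dpi by Col2a1. The part of such cells in the results was not tested.

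The 5 marker genes of the name lie on 5 loci of mouse GRCm38: C7 on chromosome 15 (4988762 to 5063740, minus strand), Gdf10 on chromosome 14 (33923587 to 33937983, plus strand), Igfbp3 on chromosome 11 (7206086 to 7213923, minus strand), Sfrp4 on chromosome 13 (19623104 to 19632994, plus strand) and Sult1e1 on chromosome 5 (87575969 to 87591594, minus strand). Igfbp3 encodes a carrier of insulin-like growth factors, Sfrp4 a secreted Wnt inhibitor, and Sult1e1 the sulfotransferase that inactivates oestrogens. C7 stood at 344, 244, 216 and 13.6 CPM in the C7 Gdf10 fibroblasts. Gdf10 stood at 293, 436, 496 and 509 CPM. C7 had 10 UMIs in the 70 cells at 7 dpi. Where C7 is that low the rule admits only cells with Gdf10, so the Gdf10 level of the chosen cells could not fall with it. In the remaining Pdgfra cells, described further on, Gdf10 was at 79.8, 102, 43.6 and 20.1 CPM. Among them, the 766, 203, 180 and 49 cells with Pi16 and 3 or more UMIs of C7 and Gdf10 had 144, 274, 303 and 521 CPM. In Pi16 cells it was at 8.55, 9.18, 11.2 and 11.6 CPM and in Smoc2 Col15a1 cells at 18.2, 8.74, 13.2 and 10.2 CPM.

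Igfbp3 stood at 663, 155, 74.1 and 60.03 CPM, with a UMI in 55.6, 27.9, 18.3 and 18.6% of the cells. Sfrp4 stood at 918, 336, 740 and 648 CPM, with a UMI in 48.5, 30.6, 47.2 and 45.7% of the cells. Sult1e1 stood at 121, 261, 79.7 and 0 CPM, with a UMI in 18.2, 31.1, 16.3 and 0% of the cells. In the Ptprc-positive, Pdgfra-negative cells, whose lower depths are given above, Igfbp3 had a UMI in 0.980, 0.618, 0.813 and 3.96%, Sfrp4 in 2.45, 1.48, 2.51 and 7.78% and Sult1e1 in 0, 0.758, 0.154 and 0%. All 5 markers were detected in the Uninjured, 1 dpi and 3 dpi cells, but at 3 dpi Igfbp3 was already close to its 7 dpi level. At 7 dpi the name with all 5 markers went against the data: Sult1e1 had 0 UMIs, with a floor of 3 UMIs at 4.09 CPM, C7 was at 13.6 CPM, and the cells were Gdf10-carrying Pdgfra cells, 32 of 70 with Sfrp4.

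**Figure D1:**
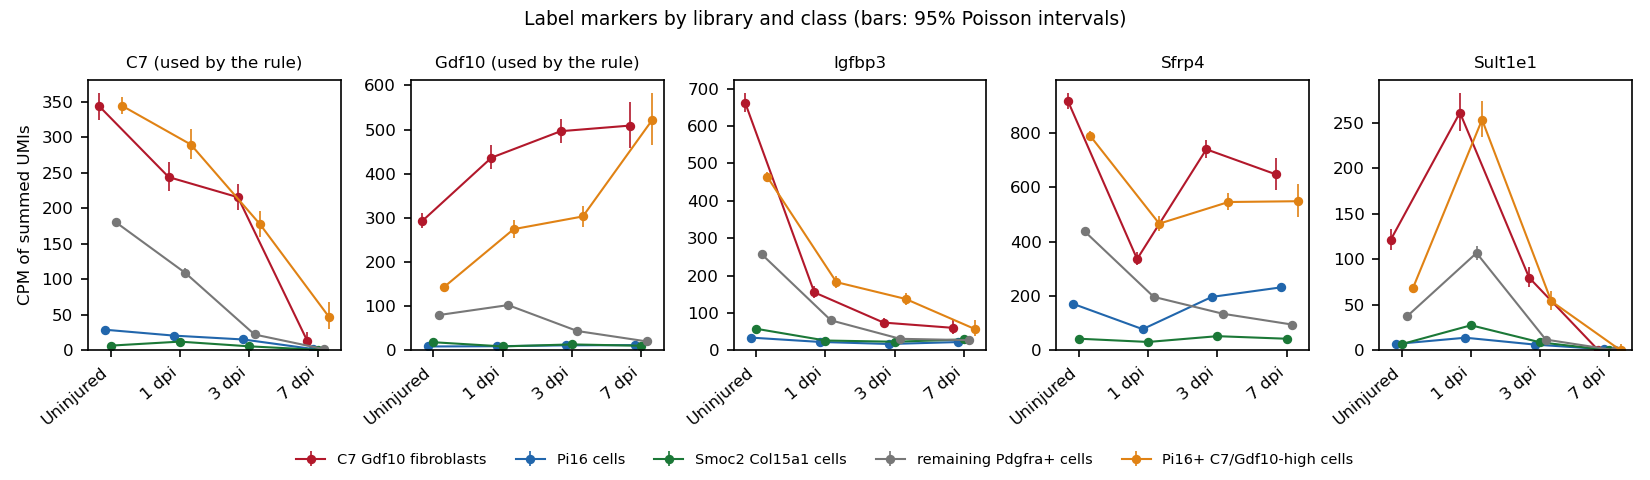
CPM (y axis, 1 scale per gene) of the 5 marker genes in each library (x axis) for C7 Gdf10 fibroblasts and 4 other classes of Pdgfra-positive, Ptprc-negative cells; points are sums over the cells of 1 library and bars are 95% Poisson intervals. C7 ran from 344 to 13.6 CPM and Sult1e1 from 121 to 0 CPM in the C7 Gdf10 fibroblasts between Uninjured and 7 dpi, while Gdf10 ran from 293 to 509 CPM. The lines join separate libraries.

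The cells varied among themselves by which of the 2 genes they carried. In the Uninjured library 88 cells had UMIs of C7 only, 149 of both genes and 87 of Gdf10 only. At 1 dpi these numbers were 27, 111 and 45, and at 3 dpi they were 16, 131 and 105. At 7 dpi no cell had C7 only, 6 had both genes and 64 had Gdf10 only. The share with Gdf10 only was thus 26.9, 24.6, 41.7 and 91.4%.

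In Uninjured muscle the C7-only and Gdf10-only cells differed in most of the genes that give the class its name. Igfbp3 was at 1212 CPM in C7-only cells, at 612 in cells with both genes and at 134 in Gdf10-only cells. Sfrp4 was at 1915, 681 and 210 CPM, and Sfrp2, another secreted Wnt inhibitor, at 2829, 1278 and 198 CPM. Each of these was highest in the C7-only and lowest in the Gdf10-only cells, with Poisson intervals that did not overlap. Eln, which encodes elastin, ran the same way at 2123, 868 and 298 CPM. The intervals cover counting error only and leave out the spread between cells, so these differences between subsets were not tested. Without the highest cell of each subset all of these genes kept this order. Sfrp4 was then at 1618, 628 and 165 CPM and Sfrp2 at 2442, 1162 and 135 CPM.

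Sult1e1 was at 130, 178 and 12.3 CPM, lowest in Gdf10-only cells, with 1 cell holding 88 of the 303 UMIs of the cells with both genes. It had a UMI in 26 of 88 C7-only cells, 29 of 149 cells with both genes and 4 of 87 Gdf10-only cells. Clu, the complement regulator clusterin, was highest in Gdf10-only cells, at 75.6, 65.6 and 217 CPM. Smoc2, a matrix protein of interstitial fibroblasts, was at 1097, 724 and 1706 CPM, and Col15a1, a basement membrane collagen, at 104, 283 and 488 CPM. Gdf10-only cells had the highest level of both of these genes. At 1 and 3 dpi the C7-only subset held 27 and 16 cells, and single cells weighed on its levels, such as 1 cell with 99 of the 140 Sfrp4 UMIs and 1 with 36 of the 85 Igfbp3 UMIs at 1 dpi. Gdf10-only cells remained below cells with both genes in Igfbp3, at 51.8 against 182 CPM at 1 dpi and 17.4 against 115 CPM at 3 dpi. Sfrp2 was at 69.6 against 422 CPM and 429 against 1012 CPM, and Sfrp4 at 144 against 412 CPM and 588 against 950 CPM. Clu, highest in Gdf10-only cells of Uninjured muscle, was lower in them here, at 23.7 against 40.5 CPM and 21.1 against 67.1 CPM. Without the highest cell of each subset these 4 genes were still lower in Gdf10-only cells at both times.

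**Figure D2:**
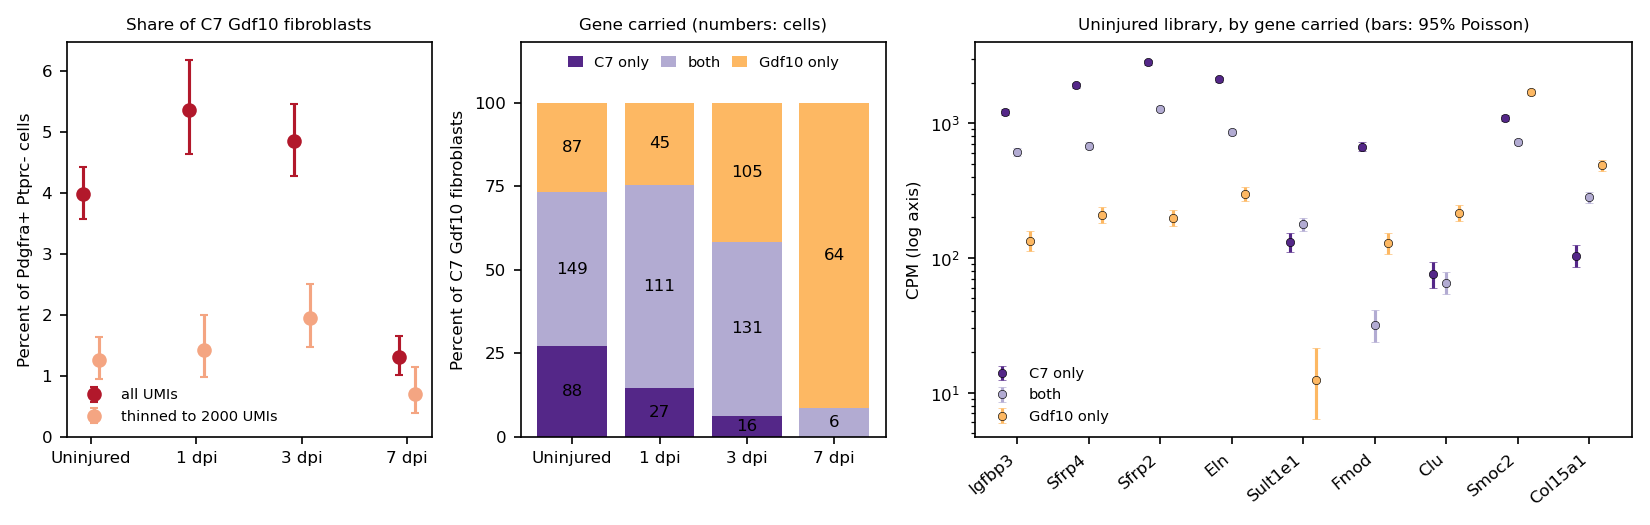
Left, share of C7 Gdf10 fibroblasts in percent of Pdgfra-positive, Ptprc-negative cells by library with exact 95% intervals, for all UMIs (1.31 to 5.37%) and after thinning to 2000 UMIs (0.698 to 1.94%). Middle, percent of the C7 Gdf10 fibroblasts with UMIs of C7 only, both genes or Gdf10 only, with cell numbers in the bars; right, CPM (log axis, 95% Poisson intervals) of 9 genes in these subsets of the Uninjured library, where Igfbp3 ran from 1212 CPM in C7-only cells to 134 CPM in Gdf10-only cells.

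With the genes of the rules left out of the variable genes, 29.3, 31.7, 31.3 and 15.1% of the 15 nearest neighbours of a C7 Gdf10 fibroblast were of its own class, beside 3.98, 5.37, 4.85 and 1.31% of all cells compared. The cells thus lay near each other, yet most neighbours belonged to other classes.

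To find what else the cells shared, UMIs were summed per library and class, and the C7 Gdf10 fibroblasts were set against 3 other classes of Pdgfra-positive, Ptprc-negative cells with edgeR's quasi-likelihood test, with the library as a block and Benjamini-Hochberg adjustment over all genes tested. Pi16 cells (6449 cells with at least 2 UMIs of Pi16 and at most 2 of C7 and Gdf10) resemble the adventitial fibroblasts that express Pi16 and Dpp4. Smoc2 Col15a1 cells (7409 cells with no Pi16, at most 2 UMIs of C7 and Gdf10 and at least 3 of Smoc2 and Col15a1) resemble interstitial fibroblasts. The 8 interstitial markers, which include Smoc2 and Col15a1, summed to 10441, 7483, 3434 and 1840 CPM in them. In the C7 Gdf10 fibroblasts this sum was 4439, 4215, 3277 and 2707 CPM. It was thus lower there in the Uninjured, 1 dpi and 3 dpi libraries and higher at 7 dpi. The remaining Pdgfra cells numbered 7417 and included cells with Pi16 and 3 or more UMIs of C7 and Gdf10. The 4 libraries are 4 time points, so these p-values ask whether a difference between classes recurred in libraries of different states. A gene is called higher or lower below when its adjusted p was under 0.05.

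Against Pi16 cells, 682 of 12843 genes (5.31%) were higher and 542 (4.22%) lower in the C7 Gdf10 fibroblasts. Against Smoc2 Col15a1 cells, 357 of 13584 (2.63%) were higher and 240 (1.77%) lower. Against the remaining Pdgfra cells, 264 of 12748 (2.07%) were higher and 166 (1.3%) lower. The calls rested on the block, since without it edgeR called 44 and 38, 13 and 0, and 2 and 1 genes higher and lower in the 3 comparisons. They rested on single libraries too: against Pi16 cells 325 were higher and 272 lower without the Uninjured library and 379 and 349 without the 3 dpi library, against Smoc2 Col15a1 cells 186 and 68 without the 1 dpi library and 192 and 155 without the 3 dpi library, with 131 lower without the Uninjured library, and against the remaining Pdgfra cells 172 and 104 without the 1 dpi library and 133 and 80 without the 3 dpi library. With the block and all libraries, 166 genes were higher and 30 lower in all 3 comparisons. The median log2 fold change over all genes tested was -0.01, -0.04 and -0.02.

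The 3 marker genes that the rule did not use were higher than in the Pi16, Smoc2 Col15a1 and remaining Pdgfra cells, although they had been picked for the name on these same cells. None of the 3 differed past the threshold from cells that met the rule except for carrying Pi16, described further on. Igfbp3 was at 33.9, 22.3, 16.7 and 22.0 CPM in Pi16 cells, and its log2 fold change was 2.87 ± 0.399 (SE, adjusted p = 0.00198, edgeR). Against Smoc2 Col15a1 cells it was 2.37 ± 0.352 (adjusted p = 0.00508, edgeR) and against the remaining Pdgfra cells 1.25 ± 0.114 (adjusted p = 0.000973, edgeR). Igfbp3 was higher in 4 of 4 libraries each time. Sfrp4 was higher by 2.05, 3.98 and 1.82 on the log2 scale, again in 4 of 4 libraries, and Sult1e1 by 4.004, 3.59 and 1.93, in the 3 libraries where it was detected in the C7 Gdf10 fibroblasts. The share of cells with an Sfrp4 UMI was 51.5, 32.1, 46.6 and 54.0% in Pi16 cells, above that of the C7 Gdf10 fibroblasts given earlier except at 3 dpi, where it was 47.2 against 46.6%. The share with 10 or more Sfrp4 UMIs was 23.5, 8.74, 14.3 and 18.6% of the C7 Gdf10 fibroblasts and 3.65, 0.766, 5.33 and 8.22% of Pi16 cells, and the highest cell held 364 UMIs. The Sfrp4 difference from the remaining Pdgfra cells no longer passed without the 3 dpi library (adjusted p = 0.0738, edgeR).

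Complement genes were more often higher than lower in the C7 Gdf10 fibroblasts. Of the 13 genes of the complement list that were tested, 10 were higher and 1 lower than in Pi16 cells (median log2 fold change 0.93), 8 higher and 0 lower than in Smoc2 Col15a1 cells (1.70), and 6 higher and 0 lower than in the remaining Pdgfra cells (1.23). Of the higher calls 7, 6 and 6 held without each library in turn. C2, a protease of the classical and lectin pathways, was at 87.9, 107, 123 and 94.1 CPM in the C7 Gdf10 fibroblasts. In Pi16 cells C2 was at 5.06, 17.1, 17.5 and 19.9 CPM. The lowest C7 Gdf10 fibroblast library lay above the highest Pi16 library, and the log2 fold change was 3.05 ± 0.266 (adjusted p = 0.000172, edgeR).

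C4b, the classical pathway component, was at 376, 407, 457 and 347 CPM against 36.7, 45.5, 67.5 and 60.4 CPM in Smoc2 Col15a1 cells, a log2 fold change of 3.01 ± 0.172 (adjusted p = 2.28e-05, edgeR). Cfb, the protease of the alternative pathway, was at 202, 674, 592 and 349 CPM and higher in each comparison, by 1.19, 2.11 and 1.39. C3, the central component, was at 1437, 2334, 1721 and 969 CPM and higher than in Pi16 and Smoc2 Col15a1 cells, while against the remaining Pdgfra cells its log2 fold change of 1.23 had an adjusted p of 0.123 (edgeR). Its difference from Pi16 cells was lost without the Uninjured, the 1 dpi or the 3 dpi library (adjusted p up to 0.112, edgeR). Cd55, which breaks up complement convertases on the cell surface, was the lower member, with 51.6, 45.9, 39.3 and 34.1 CPM against 450, 433, 205 and 143 CPM in Pi16 cells.

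Among the secreted Wnt inhibitors, too, more were higher than lower. Against Pi16 cells 5 of 7 tested genes of the list were higher and 0 lower (median log2 fold change 1.68), against Smoc2 Col15a1 cells 4 of 8 were higher and 0 lower (1.09), and against the remaining Pdgfra cells 4 of 8 were higher and 1 lower (0.70). Of the higher calls 3 held without each library in turn in each comparison. The genes higher each time were Sfrp1, Sfrp2, Sfrp4 and Dkk2. Sfrp1, which binds Wnt proteins, was at 496, 254, 682 and 572 CPM against 55.1, 39.1, 190 and 198 CPM in Pi16 cells, a log2 fold change of 2.37 ± 0.254 (adjusted p = 0.000505, edgeR). Dkk2, which acts on the Wnt co-receptors, was at 438, 258, 187 and 92.8 CPM and was higher by 1.68, 1.48 and 1.38. Wif1, the lower gene, had at most 0.809 CPM in the C7 Gdf10 fibroblasts and at most 9.83 CPM in the remaining Pdgfra cells, a call lost without the 1 dpi library (adjusted p = 0.0820, edgeR). Sfrp2 lost its call against Pi16 cells without the Uninjured, 1 dpi or 3 dpi library (adjusted p up to 0.0667, edgeR) and against Smoc2 Col15a1 cells without the 1 or 3 dpi library (up to 0.129). Dkk3, the other gene higher than in Pi16 cells, was lost without the Uninjured or 3 dpi library (up to 0.0621).

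More BMP antagonists were higher than lower, and more BMP ligands were lower than higher. Of the antagonists, 4 of 11 were higher and 2 lower than in Pi16 cells (median log2 fold change 0.86), 4 of 11 higher and 0 lower than in Smoc2 Col15a1 cells (0.37), and 4 of 10 higher and 0 lower than in the remaining Pdgfra cells (0.23). Of the higher calls 2, 2 and 3 held without each library in turn. Chrdl1, a chordin-like BMP antagonist, was at 84.7, 102, 125 and 92.8 CPM in the C7 Gdf10 fibroblasts and at 6.75, 9.20, 19.7 and 16.0 CPM in Smoc2 Col15a1 cells. The groups did not overlap, and the log2 fold change was 3.15 ± 0.208 (adjusted p = 5.31e-05, edgeR). Fst, the activin and BMP binder follistatin, was at 569, 424, 369 and 165 CPM and higher by 0.88, 1.18 and 0.88. The 2 antagonists lower than in Pi16 cells were Chrd and Fstl1, with log2 fold changes of -0.76 and -0.46. Against Pi16 cells the calls of Fst, Chrd and Fstl1 rested on single libraries. Fst was lost without the Uninjured, 1 dpi or 3 dpi library (adjusted p up to 0.0732, edgeR), Chrd without the Uninjured or 1 dpi library (up to 0.125) and Fstl1 without the Uninjured or 3 dpi library (up to 0.117).

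Of the 12 tested BMP and GDF ligands, Gdf10 left out, 1 was higher and 5 were lower than in Pi16 cells (median log2 fold change -0.69). Against Smoc2 Col15a1 cells 0 were higher and 3 lower (-0.69), and against the remaining Pdgfra cells 0 higher and 2 lower (-0.49). Of the lower calls 5, 2 and 2 held without each library in turn. Bmp2, an osteogenic ligand, was at 31.0, 33.8, 14.6 and 2.73 CPM in the C7 Gdf10 fibroblasts and at 135, 140, 43.4 and 15.3 CPM in Pi16 cells. Its log2 fold change was -1.92 ± 0.126 (adjusted p = 5.19e-05, edgeR), and it was lower in 4 of 4 libraries in all 3 comparisons. Bmp6 was at 0.794, 2.16, 0.405 and 0 CPM against 21.9, 29.8, 14.2 and 13.0 CPM in Pi16 cells. Bmp3 and Bmp7 were lower than in Pi16 cells by -4.84 and -4.14 on the log2 scale. Bmp5 was the exception, higher than in Pi16 cells by 1.23 and lower than in Smoc2 Col15a1 cells by -0.73, the latter lost without the Uninjured, 1 dpi or 7 dpi library (adjusted p up to 0.369, edgeR).

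Bmp4, whose UMIs can come from the endogenous gene or the transgene, was at 57.5, 53.2, 55.4 and 25.9 CPM. It did not pass the test in any of the 3 comparisons (edgeR adjusted p = 0.394, 0.104 and 0.885). Among the 7 BMP response genes, 3 were higher than in Pi16 cells, 3 higher than in Smoc2 Col15a1 cells and 1 higher than in the remaining Pdgfra cells, with 0 lower each time. Of these calls Id2 alone held without each library in turn. Against Pi16 cells Id3 was lost without the Uninjured, 1 or 3 dpi library (adjusted p up to 0.265, edgeR) and Id4 without the Uninjured or 3 dpi library (up to 0.0996), and against Smoc2 Col15a1 cells Smad6 was lost without the Uninjured, 1 or 3 dpi library (up to 0.171) and Id4 without the 3 dpi library (0.0585). Id2, an inhibitor of basic helix-loop-helix factors, was higher in all 3, by 1.55, 1.51 and 0.85, at 165, 144, 168 and 273 CPM. Acvr2a, a type II receptor for activins and BMPs, was at 65.7, 60.2, 106 and 36.8 CPM and was the receptor higher in all 3, by 1.496, 1.02 and 1.14.

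Genes of the IGF axis and of the chemokine and cytokine list differed in both directions. Against Pi16, Smoc2 Col15a1 and remaining Pdgfra cells, 3, 4 and 3 of 10 IGF axis genes were higher and 2, 1 and 0 lower, with medians of -0.05, 0.61 and 0.29. Igfbp5 and Igfbp6, which bind IGFs, were lower than in Pi16 cells, by -1.91 and -0.66, and higher than in Smoc2 Col15a1 cells, by 0.83 and 0.65. Igfbp6 was lost against Pi16 cells without the Uninjured or 1 dpi library (adjusted p up to 0.0809, edgeR). Against Smoc2 Col15a1 cells Igfbp5 was lost without the 1 or 3 dpi library (up to 0.110). Igfbp6 was lost there without the Uninjured, 1 or 3 dpi library (up to 0.138). Of 18 chemokine and cytokine genes, 3, 5 and 2 were higher and 2, 0 and 2 lower, with medians of -0.14, -0.06 and 0.05. The calls that held without each library in turn were 3, 1 and 3 of the higher and 1, 0 and 0 of the lower IGF axis genes, and 3, 2 and 1 of the higher and 2, 0 and 0 of the lower chemokine and cytokine genes. Igf1, the growth factor that Igfbp3 binds, was at 728, 568, 805 and 1268 CPM and higher by 0.98, 0.72 and 0.91. Cxcl12, the ligand of Cxcr4, was at 180, 556, 816 and 776 CPM and higher by 1.87, 1.13 and 1.33. Against Smoc2 Col15a1 cells both Igf1 (adjusted p up to 0.0897, edgeR) and Cxcl12 (up to 0.107) were lost without the 1 dpi or the 3 dpi library, and Cxcl12 was lost against the remaining Pdgfra cells without the 3 dpi library (0.0673). Ccl19, the ligand of Ccr7, was higher by 2.08, 2.15 and 1.91, with the caution that the mouse genome carries near-identical copies of this gene whose reads may be split. Penk, which encodes proenkephalin, was at 475, 221, 195 and 362 CPM and higher by 2.61, 1.74 and 1.79.

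In the adipogenic and lipid list, 6 of 10 tested genes were higher than in Pi16 cells, 2 of 10 higher than in Smoc2 Col15a1 cells and 3 of 10 higher than in the remaining Pdgfra cells, with 0 lower each time and medians of 1.51, 0.31 and 0.59. Of these calls 5, 0 and 0 held without each library in turn. Apoe, a lipid carrier, was at 672, 239, 419 and 656 CPM and higher by 2.50, 1.23 and 1.65. Pparg, the adipogenic regulator, was higher in each comparison too, but at no more than 8.66 CPM. Apoe was lost against Smoc2 Col15a1 cells without the 1, 3 or 7 dpi library (adjusted p up to 0.203, edgeR) and against the remaining Pdgfra cells without the 3 dpi library (0.0758), and Pparg was lost against both without the Uninjured, 1 dpi or 3 dpi library (up to 0.194 and 0.120). Apod, the third gene higher than in the remaining Pdgfra cells, was lost there without the 3 or 7 dpi library (up to 0.118), so none of the 3 passed without the 3 dpi library. Fmo2, a flavin monooxygenase, was at 63.0, 179, 183 and 19.1 CPM and had log2 fold changes of 3.78, 3.62 and 2.35. Gpnmb, a membrane glycoprotein also found in macrophages and osteoblasts, was at 89.8, 96.1, 93.1 and 30.02 CPM and higher by 2.89, 2.48 and 1.85.

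Of the matrix genes, Eln was at 1086, 313, 721 and 737 CPM and higher by 1.44, 2.12 and 1.70, and Fbln1, which encodes fibulin-1 of elastic fibres, was higher by 2.02, 2.60 and 1.58. Small leucine-rich proteoglycans were higher in 5 of 10 genes against Pi16 cells, 1 of 10 against Smoc2 Col15a1 cells and 5 of 10 against the remaining Pdgfra cells. Of these calls, those of Lum and Ecm2 against Pi16 cells held without each library in turn, while Dcn was lost there without the Uninjured or 3 dpi library (adjusted p up to 0.0845, edgeR), Bgn without the Uninjured or 1 dpi library (up to 0.123) and Podn without the Uninjured library (0.0663). Omd, the gene higher than in Smoc2 Col15a1 cells, was lost without the Uninjured or 3 dpi library (up to 0.0763). Against the remaining Pdgfra cells Ecm2 was lost without the 3 dpi library (0.0624), Podn without the 3 or 7 dpi library (up to 0.158), Lum without the 1, 3 or 7 dpi library (up to 0.128), Bgn without the Uninjured, 1 or 7 dpi library (up to 0.197) and Prelp without any of the 4 (up to 0.119). Comp, a cartilage and tendon matrix protein, was at 81.5, 122, 226 and 1205 CPM and higher by 3.82, 3.45 and 1.74, although against Smoc2 Col15a1 cells it was lost without the 1 or 3 dpi library (adjusted p up to 0.107, edgeR). Ptprc-positive, Pdgfra-negative cells with 3 or more UMIs of Ptprc held Comp at 1.32, 1.88, 4.02 and 229 CPM. Cell cycle genes had 0 of 12 genes called in either direction in each comparison.

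The other lists had fewer calls or calls in both directions. In the same order of classes, fibrillar matrix genes were 5, 0 and 2 of 18 higher and 2, 2 and 2 lower, with Fn1, which encodes fibronectin, lower than in Pi16 and remaining Pdgfra cells. Basement membrane genes were 5, 0 and 0 higher and 4, 2 and 0 lower, with Col4a1 and Col4a2 higher and Lamb1 and Nid1 lower than in Pi16 cells. Osteochondral genes were 4, 1 and 1 higher and 0, 2 and 0 lower. Acan and Col2a1, among those higher than in Pi16 cells, changed sign there at 5 or more UMIs of C7 and Gdf10. Acute phase genes were 4, 3 and 2 higher and 2, 0 and 0 lower, and BMP and TGF-beta receptors 3, 1 and 1 higher and 1, 1 and 0 lower. Steroid and retinoid genes were 5, 3 and 3 of 12 higher and 2, 2 and 1 lower, and neurotrophin and nerve genes 2, 2 and 1 of 10 higher and 1, 2 and 1 lower, with Nrp1, a receptor for semaphorins and VEGF, higher each time. Immediate early genes were 3, 0 and 0 of 10 higher and 0 lower, and interferon genes 0, 1 and 0 of 10 higher and 1, 0 and 0 lower. Over these 9 lists 23 of 44, 12 of 22 and 6 of 14 calls held in each fit made with 1 library left out. Col4a1, Col4a2, Lamb1 and Nid1 were among those held against Pi16 cells, and Nrp1 held in each comparison. These counts include Col2a1 against Pi16 cells (3 fits) and Bglap against Smoc2 Col15a1 cells (2 fits). For these 2 genes not every library was left out. Bglap was at 535 CPM at 1 dpi in Smoc2 Col15a1 cells and at 1.79 CPM or less in the other libraries. Fn1 held against Pi16 cells and was lost against the remaining Pdgfra cells.

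The genes lower than in Pi16 cells included Krtdap, Dmkn and Sbsn, known from keratinocytes. Krtdap was at 1.06, 0.866, 0.405 and 0 CPM against 197, 150, 21.6 and 13.7 CPM in Pi16 cells. Dpp4, a marker of adventitial fibroblasts, was at 42.6, 20.3, 19.8 and 4.09 CPM against 223, 208, 124 and 65.3 CPM, a log2 fold change of -2.76 ± 0.189 (adjusted p = 5.5e-05, edgeR). Acta2, a contractile gene of myofibroblasts and mural cells, was lower than in Smoc2 Col15a1 cells and the remaining Pdgfra cells, by -1.56 and -1.75. At 7 dpi Acta2 was at 266 CPM in the C7 Gdf10 fibroblasts, 1173 in Smoc2 Col15a1 cells and 840 in the remaining Pdgfra cells. Lamb1, a laminin chain, was at 116, 114, 121 and 112 CPM and lower than in Smoc2 Col15a1 cells by -1.39 (adjusted p = 0.0083, edgeR), a call that was lost without the 1 dpi library (0.064).

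**Figure D3:**
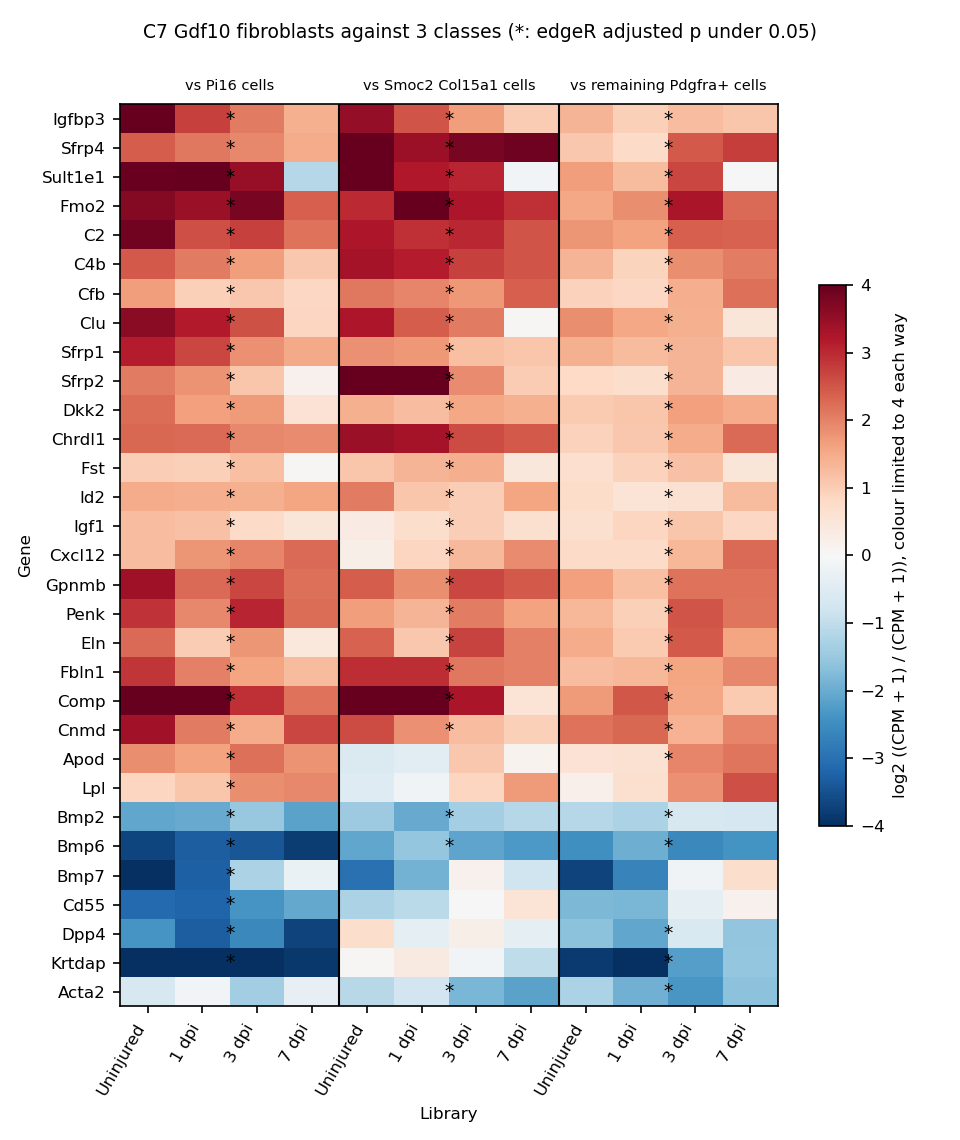
Heatmap of log2 ((CPM + 1) / (CPM + 1)) of C7 Gdf10 fibroblasts over Pi16 cells, Smoc2 Col15a1 cells and remaining Pdgfra cells (blocks of columns, 1 column per library) for 31 genes (rows), with colour limited to 4 each way and an asterisk in the middle of a block where edgeR's adjusted p was under 0.05. Complement genes and secreted Wnt inhibitors were red in most libraries, and Bmp2 and Bmp6 were blue in all 12 columns.

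The Pi16 condition of the rule was examined with an alternative chosen after seeing the data, in which the class compared was cells with Pi16 and at least 3 UMIs of C7 and Gdf10. Of 11204 genes, 246 (2.2%) were higher and 329 (2.94%) lower in the C7 Gdf10 fibroblasts. The 3 marker genes that the rule did not use were not among them: Igfbp3 had a log2 fold change of -0.10 (adjusted p = 0.888, edgeR), Sfrp4 of 0.11 (adjusted p = 0.788, edgeR) and Sult1e1 of 0.46 (adjusted p = 0.0806, edgeR). The summed 5 markers stood at 2339, 1432, 1606 and 1231 CPM in the C7 Gdf10 fibroblasts and at 1811, 1466, 1218 and 1173 CPM in the cells with Pi16. Dpp4 (-2.57), Efhd1 (-2.84), Cd55 (-1.91) and Edn1 (-1.97) were lower, and Spon1 (1.58), Sparcl1 (1.12) and Apoe (1.09) higher. Of the lists, complement had 3 of 12 genes higher and 1 lower, secreted Wnt inhibitors 2 of 6 higher and 0 lower, BMP antagonists 1 of 9 higher (Bmper) and 0 lower, and BMP and GDF ligands 1 of 11 higher and 5 lower. Setting Pi16 to 0 thus separated cells with unequal Dpp4 and Cd55, and no difference in Igfbp3, Sfrp4 or Sult1e1 passed the test.

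Between time points each ratio compares 2 libraries, and a gene was called at a ratio past 2 among genes at 20 CPM or more in either library. A gene under 20 CPM in 1 of the 2 libraries could differ in 1 direction only, so list counts between time points are description. From Uninjured to 1 dpi, 455 of 6327 genes (7.19%) were higher and 179 (2.83%) lower. With TMM scaling in place of CPM these numbers were 261 and 309, since the median log2 ratio of all genes was 0.15 on the CPM scale and -0.04 with TMM, and ratios are read against that shift. From 1 to 3 dpi 141 of 6473 (2.18%) were higher and 89 (1.37%) lower, and from 3 to 7 dpi 312 of 6581 (4.74%) were higher and 607 (9.22%) lower, with a median of -0.15, or -0.07 with TMM. From Uninjured to 7 dpi 467 of 6276 (7.44%) were higher and 433 (6.9%) lower, or 368 and 592 with TMM.

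At 1 dpi interferon response, chemokine, acute phase and cell cycle genes were more often higher than lower. Fibrillar matrix genes were more often lower. In the interferon list 9 of 10 genes were past a ratio of 2 upward (median log2 ratio 2.62) and in the chemokine and cytokine list 10 of 17 (1.16). In the acute phase list these were 8 of 11 (1.33) and in the cell cycle list 7 of 10 (1.44), with 0 downward in each list. Hp, in the acute phase count, changed sign after thinning. Between Uninjured and 7 dpi 5 cell cycle genes were tested, so at most 5 of these 10 reached 20 CPM in the Uninjured library. The rest entered by their 1 dpi level and could only be higher. Isg15, a ubiquitin-like interferon-induced protein, was at 11.1 CPM in the Uninjured library and 271 CPM at 1 dpi, 24.3-fold higher (95% interval 17.8 to 34.1). It stood at 281, 227 and 290 CPM in Pi16, Smoc2 Col15a1 and remaining Pdgfra cells at 1 dpi, so its 1 dpi level was alike in all 4 classes. Cxcl5, a neutrophil attractant, went from 22.0 to 313 CPM, 14.2-fold higher (11.3 to 18.1), and Mcm5, a replication licensing factor, from 3.71 to 43.7 CPM. In Pi16, Smoc2 Col15a1 and remaining Pdgfra cells Cxcl5 went from 29.9 to 130, 8.62 to 320 and 33.4 to 456 CPM.

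Saa3, an acute phase apolipoprotein, went from 0.265 to 214 CPM, but the 495 UMIs at 1 dpi lay in 12 of 183 cells. S100a8 and S100a9, which neutrophils hold in quantity, were also among the 8 genes with the largest ratio at 1 dpi, beside the higher immune marker sum given above, and the part of neutrophil RNA in them was not tested. Among fibrillar matrix genes 6 of 15 were lower and 1 higher (median log2 ratio -0.79). Col1a1 went from 8760 to 3206 CPM, 2.73-fold lower (2.66 to 2.80), and Postn, a matrix protein of repairing tissue, from 446 to 68.0 CPM. Igfbp3 was 4.28-fold lower (3.83 to 4.79) and Sfrp2 3.74-fold lower (3.48 to 4.02), while Sult1e1 was 2.15-fold higher (1.90 to 2.44). In Pi16, Smoc2 Col15a1 and remaining Pdgfra cells Igfbp3 went from 33.9 to 22.3, 57.5 to 26.1 and 257 to 80.1 CPM. Sult1e1 went from 6.93 to 13.8, 6.75 to 27.4 and 37.5 to 107 CPM in the same classes. Nr1d1, a repressor of the circadian clock, went from 130 to 1.73 CPM and was at 4.51, 6.54 and 5.69 CPM in the other classes at 1 dpi. The times of day of the harvests were not used here.

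The globin genes Hba-a1, Hba-a2, Hbb-bs and Hbb-bt had the lowest ratios at 1 dpi. In the Uninjured library 1 cell held 94.9% of the 1304 Hbb-bs UMIs. The level without it was 17.5 CPM, still above the 1.73 CPM at 1 dpi. In Pi16, Smoc2 Col15a1 and remaining Pdgfra cells Hbb-bs went from 148 to 39.9, 96.0 to 3.34 and 22.7 to 2.20 CPM.

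Genes of retinoic acid synthesis and breakdown differed between time points and between classes. Aldh1a2, which makes retinoic acid, was at 15.6, 124, 211 and 23.2 CPM, and Cyp26b1, which degrades it, at 30.4, 147, 68.0 and 15.01 CPM. Aldh1a2 was lower than in Pi16 and Smoc2 Col15a1 cells (log2 fold change -0.92 and -1.12), whereas Cyp26b1 was higher than in both (2.88 and 1.76). The Aldh1a2 difference from Smoc2 Col15a1 cells was lost without the 1 dpi library (adjusted p = 0.129, edgeR). Against the remaining Pdgfra cells neither gene passed the test (edgeR adjusted p = 0.582 for Aldh1a2 and 0.0620 for Cyp26b1), nor did either against cells with Pi16 and 3 or more UMIs of C7 and Gdf10 (0.351 and 0.387).

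Between 1 and 3 dpi more interferon genes were lower than higher, and more fibrillar matrix genes were higher than lower. Of the basement membrane genes 0 of 11 were past a ratio of 2 in either direction. Small leucine-rich proteoglycans were higher in 2 of 9 and lower in 0. In the interferon list 5 of 10 genes were lower than at 1 dpi (median log2 ratio -1.11), and in the fibrillar matrix list 6 of 15 were higher and 0 lower (0.78). Postn went from 68.0 to 653 CPM, 9.61-fold higher (8.16 to 11.4). In Pi16, Smoc2 Col15a1 and remaining Pdgfra cells Postn went from 128 to 1579, 107 to 1700 and 139 to 1758 CPM. Its 3 dpi level was thus lowest in the C7 Gdf10 fibroblasts among these classes. Ifi202b, an interferon-induced gene, went from 110 CPM to 0 and had been at 0 in the Uninjured library. In the other 3 classes it was at 127, 93.0 and 130 CPM at 1 dpi and at 0.145 CPM or less at 3 dpi. Car3, which encodes carbonic anhydrase 3 of muscle and fat, was at 0 UMIs at 1 dpi and 33.2 CPM at 3 dpi, 25.6-fold higher with the 0 UMIs set to the floor of 3 (exact 95% interval from 20.3-fold). In the other 3 classes it was at 0.0805, 2.81 and 9.05 CPM at 1 dpi and at 0.223, 0.893 and 1.74 CPM at 3 dpi. H19, also among the highest ratios, had 63.6% of its 3 dpi UMIs in 1 cell.

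At 7 dpi more chemokines, interferon genes and steroid and retinoid genes were lower than higher beside 3 dpi. In the chemokine and cytokine list 10 of 17 were lower (median log2 ratio -1.16) and in the interferon list 6 of 10 (-1.08). In the steroid and retinoid list these were 7 of 10 (-1.75), with 0 higher in each list. Of the genes counted, Cxcl13 changed sign at 5 or more UMIs of C7 and Gdf10, and Igtp after thinning. Ccl2, a monocyte attractant, went from 723 to 181 CPM, 3.99-fold lower (3.34 to 4.79). Sult1e1 was 19.5-fold lower with its 0 UMIs set to the floor of 3, and its exact 95% interval began at 15.7-fold. The share of Gdf10-only cells was 41.7% at 3 dpi and 91.4% at 7 dpi, and within Gdf10-only cells Sult1e1 was at 18.9 CPM at 3 dpi and 0 at 7 dpi, with an upper limit of 5.34 CPM. Hsd11b1, which regenerates active glucocorticoid, went from 99.6 to 30.02 CPM. Prg4, the lubricin of joint surfaces, went from 1003 to 39.6 CPM, 25.4-fold lower (17.6 to 37.9), and Myoc from 1376 to 47.8 CPM. Sult1e1, Hsd11b1, Prg4 and Myoc were lower at 7 than at 3 dpi in the other 3 classes as well. Sult1e1 went from 6.25 to 1.18, 8.69 to 0.0715 and 11.7 to 0 CPM in Pi16, Smoc2 Col15a1 and remaining Pdgfra cells. In cells with Pi16 and 3 or more UMIs of C7 and Gdf10 it went from 53.9 to 0 CPM.

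Several BMP genes were lower at 7 dpi. Against the Uninjured library 4 of 6 ligands, 3 of 7 antagonists and 2 of 9 BMP and TGF-beta receptors were past a ratio of 2 downward and 0 upward. Among the ligands were Bmp5, from 45.0 to 5.46 CPM, and Bmp4, 2.22-fold lower (1.39 to 3.75). Bmp2 and Inhba were the other ligands, and Inhba had 72.2% of its Uninjured UMIs in 1 cell. The share of cells with a Bmp4 UMI went from 36.4 to 12.9% in the C7 Gdf10 fibroblasts. It went from 43.7 to 21.5, 65.0 to 15.4 and 47.5 to 9.09% in Pi16, Smoc2 Col15a1 and remaining Pdgfra cells. The median depth of the remaining Pdgfra cells also went from 9939 to 4907.5 UMIs. Against 3 dpi, 2 of 5 ligands were lower and 1 higher (median log2 ratio -0.11, beside -0.15 for all genes), 3 of 7 antagonists were lower, among them Fst from 369 to 165 CPM, and 5 of 10 receptors were lower. Col1a1 reached 13872 CPM, 3.01-fold higher than at 3 dpi (2.93 to 3.09), and Igfbp4, an insulin-like growth factor carrier, 3502 CPM, 2.60-fold higher (2.47 to 2.74). In the other classes at 7 dpi Igfbp4 was at 1740, 1387 and 1215 CPM.

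**Figure D4:**
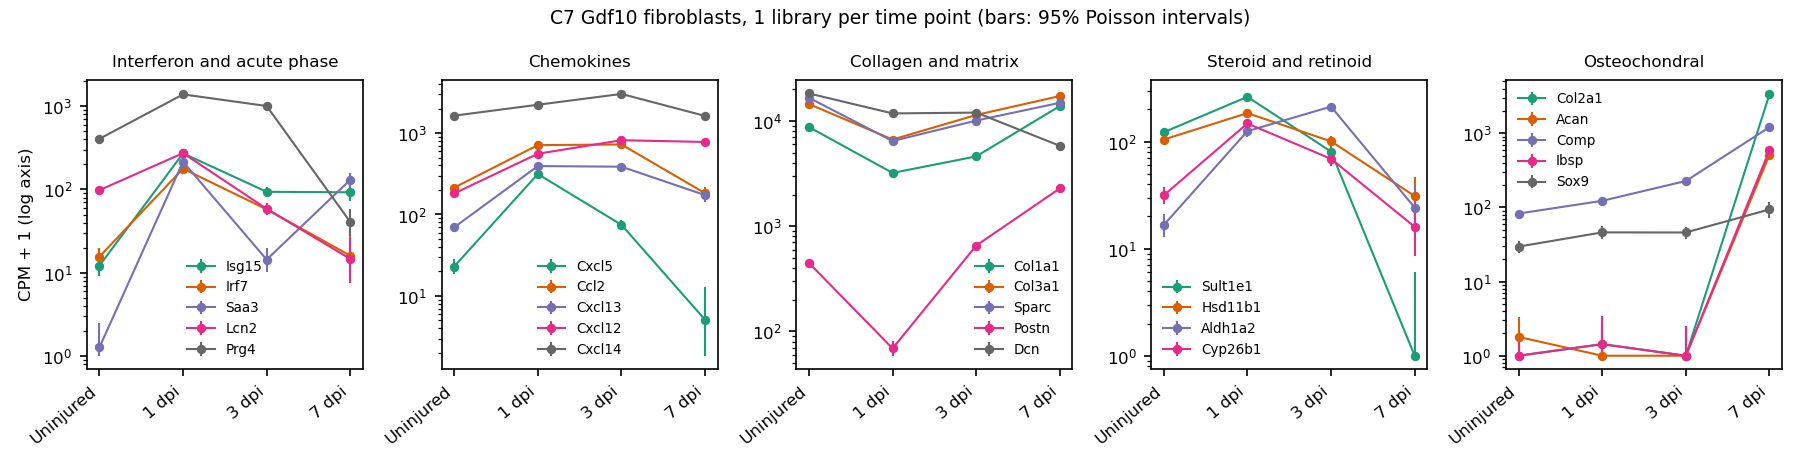
CPM + 1 (log axis) of 24 genes of 5 groups in the C7 Gdf10 fibroblasts of each library (x axis), with 95% Poisson intervals as bars; the lines join separate libraries. Isg15 peaked at 271 CPM at 1 dpi, Col1a1 was lowest at 1 dpi (3206 CPM) and highest at 7 dpi (13872 CPM), and Col2a1 had 0 UMIs at 3 dpi and 3336 CPM at 7 dpi.

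Cartilage and bone genes were higher at 7 dpi. All 10 tested genes of the osteochondral list were higher than at 3 dpi (median log2 ratio 5.97). Among them were Sox9, Acan, Col2a1, Comp, Runx2, Alpl and Ibsp. Between 1 and 3 dpi 4 genes of the list were tested, so at most 4 of these 10 reached 20 CPM at 3 dpi. The rest entered by their 7 dpi level and could only be higher, so the count and median are no evidence for them. Col2a1, the main collagen of cartilage, had 0, 1, 0 and 2445 UMIs, which was 3336 CPM at 7 dpi and 2747-fold higher than at 3 dpi with the 0 UMIs set to the floor of 3 (exact 95% interval from 2233-fold). Runx2, the regulator of bone-forming cells, went from 19.0 to 66.9 CPM. Immune cells, which should make no Col2a1, carried it in this library as well. At 7 dpi Col2a1 had a UMI in 45.7% of the C7 Gdf10 fibroblasts (median depth 8801.5 UMIs), in 59.7, 61.0 and 60.7% of Pi16, Smoc2 Col15a1 and remaining Pdgfra cells, and in 43.4% of the Ptprc-positive, Pdgfra-negative cells (median depth 2468.5). In the 844 of these immune cells with 3 or more UMIs of Ptprc it had a UMI in 32.0% (median depth 2950.5). The share in the C7 Gdf10 fibroblasts was therefore not read as expression, since their depth was over 2 times that of the immune cells. As levels, Col2a1 was at 3336 CPM in the C7 Gdf10 fibroblasts, 705, 2167 and 1339 CPM in the other 3 classes, 2798 CPM in the Ptprc-positive cells and 555 CPM in those with 3 or more UMIs of Ptprc. In the other 3 libraries the Ptprc-positive cells held at most 0.436 CPM. Acan, Comp, Ibsp and Sox9 were also carried by the immune cells at 7 dpi, at 627, 921, 1483 and 107 CPM in the Ptprc-positive cells and 165, 229, 128 and 34.7 CPM in those with 3 or more UMIs of Ptprc.

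Most of this signal in the C7 Gdf10 fibroblasts came from few cells. Col2a1 had a UMI in 32 of the 70 cells, but 8 cells held 10 or more, and the highest held 690 UMIs, 28.2% of all. In the other 62 cells, whose low Col2a1 was set by this division, Col2a1 was at 50.6 CPM, Acan, the cartilage proteoglycan, at 52.3 CPM (509 in all 70), Col9a1 at 23.6 CPM (437), Snorc, a chondrocyte membrane proteoglycan, at 1.69 CPM (554) and Cnmd, which encodes chondromodulin, at 6.74 CPM (394). Comp was at 244 CPM in these 62 cells (1205 in all 70). Sox9, the chondrogenic regulator, was at 77.5 CPM in the 62 cells and 92.8 in all 70. Ibsp, a bone matrix protein, had 371 of its 431 UMIs in 1 cell, and Col10a1 had 39 of 45 UMIs in 1 cell. Gdf10, which the rule requires, was at 577 CPM in the 62 cells, and Sfrp4 was at 799 CPM. The cells with both C7 and Gdf10 had Col2a1 at 23.5 CPM and the Gdf10-only cells at 3540 CPM, with 6 and 64 cells behind these values.

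**Figure D5:**
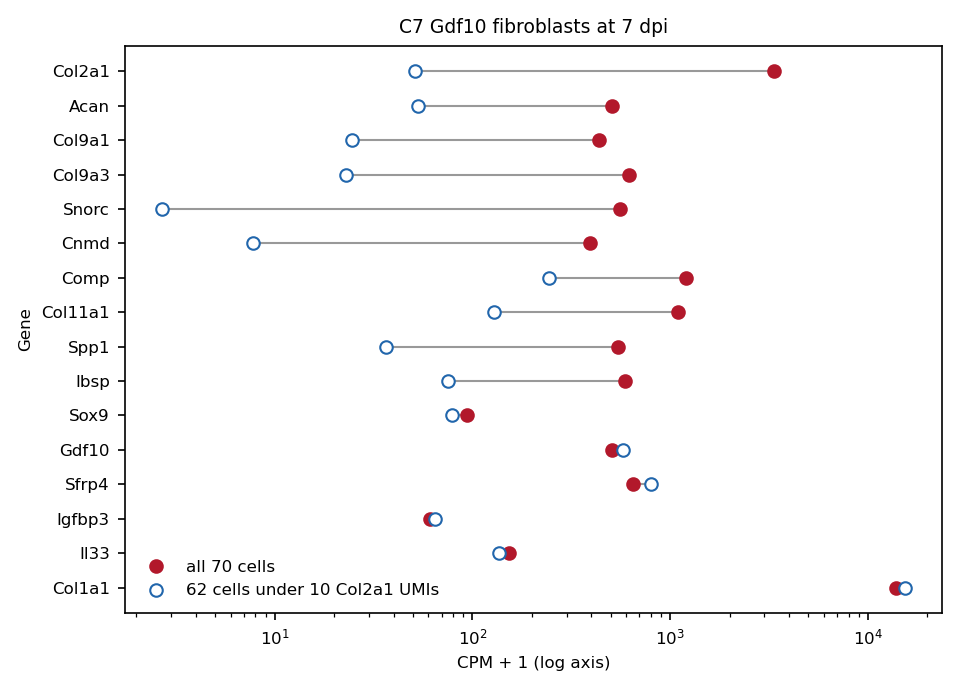
CPM + 1 (log axis) of 16 genes (rows) in the 7 dpi C7 Gdf10 fibroblasts, for all 70 cells (filled points) and for the 62 cells under 10 UMIs of Col2a1 (open points). Col2a1 went from 3336 to 50.6 CPM and Snorc from 554 to 1.69 CPM when 8 cells were left out, while Gdf10, Sfrp4, Igfbp3, Il33 and Col1a1 differed little.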

How the data were processed

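The 4 libraries each pooled 3 tibial muscles. The authors made the counts with Cell Ranger 5.0.0 (STAR aligner), and the submitters' processing notes name mm10 and Seurat 3.1.1. The deposited values are whole-number UMI counts per gene (32285 features) and called cell. Reads were down-sampled according to the study's methods, but no source used here says if that step came before these tables. Of the features, 99.6% matched GENCODE M21 on GRCm38.

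Cells above 10% mitochondrial UMIs were removed and cells were assigned by the UMI rules given in the text. The members, the classes and the gene lists were chosen with earlier results of these data known. UMIs were summed per library and class. edgeR 4.0.16 in R 4.3.3 fitted each pair of classes (glmQLFit, glmQLFTest, TMM, filterByExpr, library as block, Benjamini-Hochberg, threshold 0.05), with the genes of the rules left out. DESeq2 1.42.0 was an alternative. Time points, 1 library each, were compared by CPM ratios with exact conditional intervals at 95%, without a test. Shares have Clopper-Pearson intervals and CPM values Poisson intervals, which cover counting error only. A gene with 0 UMIs was set at a floor of 3. Neighbours came from principal components within a library, both computed with scikit-learn 1.9.0. Doublets were scored with Scrublet in scanpy 1.11.5 and were left out only in an alternative (top 7.5% of each library). The fit against Pi16 cells and the intervals were tested on simulated data. The simulated counts of the fit were drawn independently of each other. The fits against the other classes were not simulated. Python was 3.11.15 with numpy 2.4.6 and scipy 1.17.1.

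Genes named are those of the lists, the 8 highest and 8 lowest CPM ratios of each pair of time points (at least 50 UMIs and 20 CPM in the higher library), and for each class comparison the 10 genes with the largest log2 fold change in each direction (adjusted p under 0.05, the same sign in every library, at least 50 CPM in the higher class). Not all of these are described. The genes shown for the subsets were taken from those named genes. Some list members enter the counts but are not reported here by name.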

Additional observations from a re-analysis of the deposited data

Results flagged for a closer look

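Il33, an alarmin cytokine, moved one way in the C7 Gdf10 fibroblasts and the opposite way in the other classes between Uninjured and 7 dpi. Its 7 dpi to Uninjured ratio was 2.48 (95% interval 1.959 to 3.12) in the C7 Gdf10 fibroblasts and 0.354, 0.442 and 0.368 in Pi16, Smoc2 Col15a1 and remaining Pdgfra cells. With 1 library per time point this difference was not tested. Il33 was at 61.7, 67.5, 186 and 153 CPM in the C7 Gdf10 fibroblasts (Uninjured, 1, 3 and 7 dpi) and at 216, 156, 250 and 76.5 CPM in Pi16 cells. It had a UMI in 67 of 324 Uninjured cells and in 31 of 70 cells at 7 dpi, and in 22 of 1224 Ptprc-positive, Pdgfra-negative cells of the Uninjured library and 3.83% of those at 7 dpi, which were shallower. The highest cell held 70 of the 233 UMIs in the Uninjured library and 28 of 112 at 7 dpi, and without it the levels were 43.8 and 120 CPM. In the 62 cells at 7 dpi with fewer than 10 UMIs of Col2a1, Il33 was at 135 CPM.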

How the results depend on the processing

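Each time point was 1 library, so the variation between animals and libraries was not measured and the intervals cover counting error only. The 70 cells at 7 dpi gave the least precise values. No paired analysis between time points was possible because each time point was 1 library. The tests between classes paired the classes within each library through the block. Values are listed in the order Uninjured, 1, 3 and 7 dpi. Where a value changed, the cause was not tested.

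The share was 6.00, 7.51, 7.66 and 2.18% at 2 or more UMIs of C7 and Gdf10, 2.46, 3.08, 2.58 and 0.541% at 5 or more, 1.25, 1.42, 1.94 and 0.698% after thinning to 2000 UMIs, 0.220, 0.390, 1.01 and 0.133% after thinning to 1000, and 2.74, 1.69, 1.78 and 0.304% with all cells that passed the mitochondrial filter as denominator. At 5 or more UMIs the share with both genes was 57.0, 79.0 and 67.2% in the first 3 libraries, with Gdf10 only 14.0, 15.2 and 29.1%, and with C7 only 5.71% at 1 dpi. Own-class neighbours were 27.6, 28.5, 29.0 and 13.6% with 30 neighbours, and 26.8, 26.3, 26.7 and 11.3% after thinning. Cells with fewer UMIs than the thinning depth were left out of these thinned settings.

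Genes past a ratio of 2 with a limit of 5 CPM numbered 1084 higher and 383 lower (1 dpi against Uninjured), 386 and 348 (3 against 1 dpi), 880 and 1272 (7 against 3 dpi), and 1312 and 867 (7 dpi against Uninjured). After thinning they were 883 and 418, 443 and 394, 938 and 1115, and 1142 and 858, and with TMM 261 and 309 from Uninjured to 1 dpi. The log2 ratio changed sign after thinning for Hp (-0.48, 1 dpi against Uninjured), Ddah1 (-0.45, 3 against 1 dpi), Ccna2 (0.60), Cdk1 (0.98), Gbp5 (0.60), Igtp (0.60) and Inhba (-0.50, all 7 against 3 dpi), and Cxcl5 (2.21), Igf2 (-0.60) and Podn (0.023, all 7 dpi against Uninjured). With the mean of CPM per cell it changed sign for Ccna2 (0.048, 7 against 3 dpi), Aldh1a3 (0.31) and Inhba (0.11, both 7 dpi against Uninjured). At 5 or more UMIs it changed sign for Inhba (0.035, 1 dpi against Uninjured), Cxcl13 (0.90, 7 against 3 dpi) and Igf2 (-1.22, 7 dpi against Uninjured), and Acan and Col2a1 changed to -0.47 and -1.97 against Pi16 cells.

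Without the library block, edgeR called 44 genes higher and 38 lower against Pi16 cells, 13 and 0 against Smoc2 Col15a1 cells and 2 and 1 against the remaining Pdgfra cells. The 0 stood beside 234 genes lower at an unadjusted p under 0.05, and DESeq2 with the block called 179 lower. Leaving out 1 library gave 325 to 742 higher and 272 to 661 lower against Pi16 cells, 186 to 417 and 68 to 299 against Smoc2 Col15a1 cells, and 133 to 269 and 80 to 155 against the remaining Pdgfra cells. With no filter on low counts 882, 439 and 423 genes were lower, and 412 were higher than in the remaining Pdgfra cells. With all 4 classes in 1 fit 834, 480 and 307 were lower, and 424 higher than in the remaining Pdgfra cells. Thinning gave 435 higher than in Pi16 cells, and 5 or more UMIs gave 313 lower than in the remaining Pdgfra cells. DESeq2 kept the call of 107, 63 and 62 named genes in the 3 comparisons and lost 4, 4 and 0.

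Further alternatives were chosen after seeing the data. With remaining Pdgfra cells limited to 2 UMIs of C7 and Gdf10, 412 genes were higher, and Fn1 changed sign (0.042). Against Pi16-carrying cells, 246 genes were higher and 329 lower, and these log2 fold changes had the opposite sign from those against Pi16 cells: Aldh1a2 0.27, Lamb1 0.064, C1ra -0.089, C3 -0.19, Col2a1 -0.12, Fkbp5 -0.0034, Hp -0.33, Id3 -0.13, Igfbp3 -0.10, Lcn2 -0.083, Serping1 -0.21 and Sfrp2 -0.32.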

Other observations

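These genes were picked after their values were seen, so their p-values describe the fit and are no independent evidence. Kcnj8 and Abcc9 encode the pore and the regulatory subunit of a potassium channel that closes on ATP and is best known from vascular mural cells. Kcnj8 was at 17.2, 2.60, 4.05 and 50.5 CPM in the C7 Gdf10 fibroblasts (Uninjured, 1, 3 and 7 dpi) and at 1.76, 0.242, 0.298 and 14.5 CPM in Pi16 cells. Its log2 fold change against Pi16, Smoc2 Col15a1 and remaining Pdgfra cells was 2.81, 3.78 and 1.49 (edgeR adjusted p = 0.00105, 0.000607 and 0.0184). Kcnj8 is on the mural marker list, whose most abundant gene, Acta2, was lower than in Smoc2 Col15a1 and remaining Pdgfra cells (log2 fold change -1.56 and -1.75). The mural list summed to 72.5, 15.1, 87.4 and 366 CPM in the C7 Gdf10 fibroblasts, 120, 12.7, 223 and 1290 CPM in Smoc2 Col15a1 cells and 153, 43.3, 316 and 958 CPM in the remaining Pdgfra cells. Abcc9 was at 23.3, 14.3, 19.0 and 27.3 CPM in the C7 Gdf10 fibroblasts, and its log2 fold change was 3.73, 4.35 and 1.86 (edgeR adjusted p = 0.00253, 0.000607 and 0.00207). Both genes were higher in 4 of 4 libraries in each comparison, and neither passed the test against cells with Pi16 and at least 3 UMIs of C7 and Gdf10 (edgeR adjusted p = 0.913 for Kcnj8 and 0.753 for Abcc9).

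Inmt, an indolethylamine methyltransferase, was at 560, 569, 325 and 13.6 CPM in the C7 Gdf10 fibroblasts and higher than in the 3 other classes by 2.13, 1.61 and 1.65 on the log2 scale (edgeR adjusted p = 0.000383, 0.000991 and 0.00905). At 7 dpi it was low in Pi16, Smoc2 Col15a1 and remaining Pdgfra cells as well, at 2.37, 3.15 and 1.65 CPM. Cpe, which encodes carboxypeptidase E of peptide hormone processing, was at 95.3, 29.4, 24.3 and 60.03 CPM and higher by 3.23, 1.54 and 1.56, again in 4 of 4 libraries each time.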
